A study of Mus musculus with 15 samples.

Results

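Mouse Embryonic Fibroblasts (MEFs) treated by IL-1β were compared directly with MEFs treated by IL-6, as 3 arrays against 3 of the 15 arrays of the series. The arrays were chosen by their labels alone, with no use of a measured value. The gene lists and the tests, however, were chosen with earlier results of these data known. All cultures came from the 3T3 cell line, an established line of mouse embryonic fibroblasts (Balb/c, clone A31, by the study's methods), so that 1 line stands behind every group, the controls included. IL-1β was given at 1 ng/ml. IL-6 was given at 20 ng/ml with its soluble receptor (sIL-6Rα) at 25 ng/ml, and "IL-6" below stands for this pair. The 3 control arrays came from MEFs that received no cytokine. The labels give a seeding of 24 or 72 h for the whole series but state no exposure time for these groups, and each cytokine was used at 1 dose. The study describes its microarrays of controls and of MEFs treated by TGFß1 or TNFα as 3 biological replicates from separate experiments. For the IL-1β and IL-6 arrays neither the labels nor the study says so, and q-values then measure the spread between arrays, which may be technical.

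Both cytokines are known as mediators of inflammation, but their receptors use different routes to the nucleus. IL-1β binds the IL-1 receptor and its accessory protein, whose adaptors activate the IκB kinases; the inhibitor IκBα is then degraded and NF-κB dimers enter the nucleus. IL-6 binds IL-6Rα, on the membrane or in its soluble form, and the complex engages the shared signal transducer gp130, whose JAK kinases phosphorylate STAT3. Both routes are known to switch on their own inhibitors, IκBα and A20 for NF-κB and SOCS3 for gp130. In fibroblasts, IL-1β is known for the induction of chemokines and matrix-degrading proteases, while IL-6 is best known for the acute-phase response of the liver.

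A level is given here as the log2 processed signal minus the 75th percentile of its array, and a log2 difference is IL-1β minus IL-6, so that positive values mean higher with IL-1β. Values of the arrays follow the order IL-1β 5, 10 and 15, IL-6 3, 8 and 13, and control 1, 6 and 11, after the number that opens each label. IL-1β 15, IL-6 13 and control 6 lay on slide 2 and the other arrays of these groups on slide 1, so that both cytokines had the same number of arrays per slide. On the 6 arrays of both cytokines, 50.2% to 53.3% of the probes were well above background, the 75th percentile of the signal lay between 383 and 437, and no spot was saturated. Pearson's r across probes was 0.979 to 0.991 within a group and 0.977 to 0.995 between the groups. The first principal component of the 6 arrays (54.8% of the variance) set IL-1β 15 and IL-6 13 apart from the other 4 and did not separate the cytokines. These 2 arrays are the only ones on slide 2 and also the only ones with label numbers of 11 to 15, so that the slide and the run of label numbers, described with the calls, cannot be told apart in this split.

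IL-1β and IL-6 differed at 205 of 28275 probes tested (0.725%), with a q-value below 0.05 and an absolute fold-change of at least 1.5 in limma, the rule by which a probe is called here. Of these, 126 were higher with IL-1β and 79 were lower. Represented by 1 probe a gene, 89 of 13150 genes were called higher with IL-1β (0.677%) and 52 were called lower (0.395%), and 19 further probes called higher and 8 called lower carried no gene name. The 3 and 3 arrays did not overlap for 139 of the 141 called genes, against 1303 of all genes tested (9.91%). Each called gene had the same sign on both slides. Neither the lack of overlap nor the shared sign is a separate check, since the calls rest on the same arrays. An array measures the RNA of a whole culture, so that more cells with a transcript and more transcript per cell cannot be told apart. For 8 called genes no array of 1 of the groups was well above background, and the difference is a bound. A fitted difference of at least 4-fold was found for 21 of the genes called higher and 6 of those called lower. Over the 89 genes higher with IL-1β, the median log2 difference from control was 0.81 with IL-1β and -0.23 with IL-6, and over the 52 lower genes it was -0.27 with IL-1β and 0.81 with IL-6; both differences use the same 3 control arrays.

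**Figure D1:**
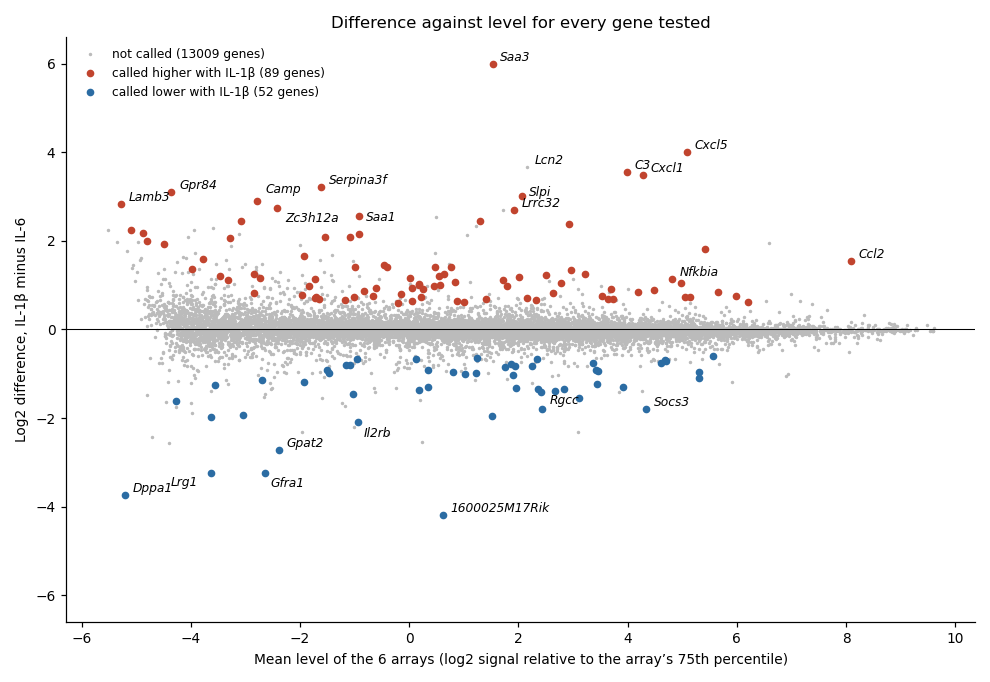
Log2 difference (IL-1β minus IL-6, vertical axis) against the mean level of the 6 arrays (log2 signal relative to the 75th percentile of the array, horizontal axis) for the 13150 genes tested. Red points are the 89 genes called higher with IL-1β, blue points the 52 called lower, and grey points the genes not called; *Saa3* (5.99) and *1600025M17Rik* (-4.19) stand at the ends.

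The number of calls depended on the arrays in the fit. The numbers that open the labels form runs of 5, each with 1 array of every group, and arrays of the same run deviated together (r 0.369 to 0.576 for the 3 pairs of IL-1β and IL-6 arrays). With the run as a further block beside the slide, 518 probes were called (298 higher, 220 lower), among them all 205. A fit of the 6 arrays alone, with 3 residual degrees of freedom instead of 9, called 7 probes, all higher with IL-1β and among them *Cxcl1*, *Cxcl5*, *Lamb3* and *Lrrc32*, while 2270 probes (1007 of them lower) had an unadjusted p below 0.05. Without IL-1β 5, IL-1β 10, IL-6 8 or IL-6 13 the count of all calls fell to 98, 108, 116 or 81, and without IL-1β 15 or IL-6 3 it was 137 or 148. Of the 141 called genes, 55 kept the call whichever of the 6 arrays was left out, 23 kept it in none of these fits, and all 141 kept their sign. The genes were called on these same arrays, so their signs were nearly fixed in advance.

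Several inhibitors and subunits of NF-κB were called higher with IL-1β. Of the 27 members of this list that were tested, 8 were called higher (29.6%) and none lower, against 0.677% and 0.395% over all genes. At an unadjusted p below 0.05 in limma, 12 were higher and 2 lower (51.9% together, 8.47% over all genes). The median log2 difference was 0.22 against -0.01 over all genes tested. *Zc3h12a* encodes Regnase-1, an endonuclease that degrades the mRNAs of inflammatory cytokines. Its level was -1.82, -1.06 and -0.25 on the IL-1β arrays, -4.0, -4.4 and -2.98 on the IL-6 arrays, where 2 of 3 were well above background, and -3.88, -3.05 and -4.84 on the control arrays (log2 difference 2.75 ± 0.24 (SE), q = 0.000305). No IL-1β array reached down to an IL-6 array, which was a condition for a place among the 12 largest differences. *Nfkbia* encodes IκBα, the inhibitor that holds NF-κB in the cytoplasm, and had a level of 5.51, 5.39 and 5.24 with IL-1β, 4.33, 4.39 and 4.01 with IL-6 and 4.43, 4.03 and 4.36 in controls (log2 difference 1.13 ± 0.08 (SE), q = 9.25e-05). *Tnfaip3* encodes A20, a ubiquitin-editing inhibitor of the same pathway, and lay at 1.16, 0.98 and 1.29 with IL-1β, -0.03, -0.12 and -0.01 with IL-6 and -0.21, -0.23 and -0.13 in controls (log2 difference 1.2 ± 0.1 (SE), q = 0.000305). The IL-6 arrays overlapped with the control arrays for *Nfkbia* and lay just above them for *Tnfaip3*, and for both genes the 3 IL-1β arrays stood above all others.

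*Relb*, an NF-κB subunit of the alternative pathway, was 2.16-fold higher with IL-1β (log2 difference 1.11 ± 0.11 (SE), q = 0.000669), and *Nfkbie*, which encodes the inhibitor IκBε, 1.99-fold higher (log2 difference 0.99 ± 0.11 (SE), q = 0.00105). The other 3 called members, named after their values were seen, were *Tnip1*, a partner of A20 (0.85, q = 0.0136), *Ikbke*, a kinase related to the IκB kinases (0.7, q = 0.033), and *Nfkb1*, a subunit of the classical dimer (0.63, q = 0.00526). *Tnip1* lost its call without IL-1β 10, IL-1β 15, IL-6 3 or IL-6 13, with log2 differences of 0.72 to 1.00 over all left-out arrays, and *Ikbke* lost it without any 1 of the 6 (0.63 to 0.79). The other 6 called members kept the call in all 6 of these fits. Without IL-6 3, 6 members were called higher and 1 lower. *Nfkbiz*, which encodes the atypical inhibitor IκBζ, stood at 1.54, 1.61 and 1.67 with IL-1β, 1.5, 1.61 and 1.31 with IL-6 and 0.29, -0.04 and 0.11 in controls. It was called against control with IL-1β (1.49, q = 0.000117) and with IL-6 (1.35, q = 0.000776), while the difference between the cytokines was 0.14 ± 0.12 (SE) and was not called. A second probe of *Nfkbiz* had the opposite sign between the cytokines and was not called either. *Rela*, the transactivating subunit of the classical dimer, had a difference of 0.01 ± 0.10 (SE), and the lowest members were *Map3k14*, the kinase NIK of the alternative pathway (-0.75, q = 0.248), and *Tnip2*, a further partner of A20 (-0.56, q = 0.0213, short of the fold-change asked for).

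Promoter sequences are shown for 3 of these genes and for *Cxcl1*, described next, because they carry matches to the NF-κB motif, taken as GGG and TTTCC with any 2 bases between them, or to a looser form, GGG and TTCC with any 3 bases between them, which contains the first. Both strands of the 250 bases before the start were searched. The stretches end at the base before the start of the gene, run 5′ to 3′ on the strand of the gene, and have the matched bases in capitals; they come from RefSeq (GRCm38.p6) and were chosen for holding a match.
Nfkbia: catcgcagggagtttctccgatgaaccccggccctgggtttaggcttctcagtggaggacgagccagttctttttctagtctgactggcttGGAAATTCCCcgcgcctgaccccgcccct
Tnfaip3: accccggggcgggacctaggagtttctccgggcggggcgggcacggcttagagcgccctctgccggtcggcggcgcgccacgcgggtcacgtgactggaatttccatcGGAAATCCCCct
Cxcl1: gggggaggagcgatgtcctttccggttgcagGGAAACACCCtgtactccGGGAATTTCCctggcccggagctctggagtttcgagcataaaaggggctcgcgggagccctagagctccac
Tnip1: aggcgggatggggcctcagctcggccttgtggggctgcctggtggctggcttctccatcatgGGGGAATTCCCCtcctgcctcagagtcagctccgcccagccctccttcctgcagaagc
The *Nfkbia* stretch is chr12:55492648-55492767 on the minus strand, with its match starting 29 bases before the gene, and the *Tnfaip3* stretch is chr10:19015411-19015530 on the minus strand, with its match 12 bases before the start. *Cxcl1* (chr5:90891125-90891244, plus strand) holds 2 matches, 89 and 71 bases before the start. *Tnip1* (chr11:54962941-54963060, minus strand) holds 2 overlapping matches of the looser form. *Nfkbie* held a match of the looser form as well, and *Zc3h12a* and *Ikbke* held neither form in this window. The table held promoters for 6 of the 8 called members of the NF-κB list (not for *Relb* and *Nfkb1*), for 65 of the 89 genes called higher and for 46 of the 52 called lower, some with several starts. The stricter motif was found in 464 of 32851 promoters of the table (1.41%), in 194 of 13300 promoters of genes tested (1.46%), in 6 of 83 promoters of genes called higher with IL-1β (7.23%) and in 0 of 64 promoters of genes called lower. For the looser form the shares were 4.65%, 5.2%, 14.5% and 3.12%. A match of letters is a description of the sequence, not a binding site.

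Chemokines that attract neutrophils were among the most different genes. *Cxcl5* and *Cxcl1* encode ligands of the receptor CXCR2. The level of *Cxcl5* was 6.88, 7.11 and 7.28 with IL-1β, 2.78, 3.35 and 3.11 with IL-6 and 1.87, 2.27 and 1.76 in controls, and it was 16.1-fold higher with IL-1β than with IL-6 (log2 difference 4.01 ± 0.16 (SE), q = 5.79e-07). *Cxcl1* lay at 5.86, 6.08 and 6.13 with IL-1β, 2.59, 2.61 and 2.4 with IL-6 and 1.96, 1.85 and 1.84 in controls, a 11.2-fold difference between the cytokines (log2 difference 3.49 ± 0.18 (SE), q = 5.62e-06). For both chemokines every IL-1β array lay more than 3 above every IL-6 array, a gap several times the spread within any group. *Cxcl5* was called against control with both cytokines (5.12, q = 3.42e-08 with IL-1β and 1.11, q = 0.024 with IL-6), *Cxcl1* with IL-1β (4.14, q = 8.07e-07) and not with IL-6 (0.65, q = 0.377). *Ppbp*, the other member tested, had a q-value of 0.0295 and a log2 difference of 0.58, just short of the fold-change asked for. *Cxcl2* and *Cxcl3* were not well above background on any of the 6 arrays and were not tested.

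Of 10 CC chemokines tested, 2 were called higher with IL-1β (20%, against 0.677% over all genes), and 4 with the run as a block. *Ccl2*, which attracts monocytes, was at 8.72, 9.02 and 8.85 with IL-1β, 6.98, 7.7 and 7.28 with IL-6 and 6.62, 7.0 and 7.01 in controls (log2 difference 1.54 ± 0.24 (SE), q = 0.0107), and lost its call without IL-1β 10, IL-1β 15 or IL-6 13, with differences of 1.34 to 1.72 over the left-out arrays. *Ccl5*, a chemoattractant of T cells and monocytes, lay at 2.65, 2.41 and 2.5 with IL-1β, 0.32, 0.3 and -0.42 with IL-6 and -0.56, -0.73 and 0.35 in controls (log2 difference 2.45 ± 0.3 (SE), q = 0.00253) and kept the call in all 6 of these fits. For both, every IL-1β array was above every IL-6 array. *Ccl20* (1.57, q = 0.0783) and *Ccl7* (0.64, q = 0.146) were not called between the cytokines.

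Acute-phase and antimicrobial proteins differed in both directions. Of 15 members tested, 5 were called higher with IL-1β and 1 lower (0.677% and 0.395% over all genes), with a median log2 difference of 1.22. *Saa3* encodes a serum amyloid A protein made outside the liver, and its level of 3.82, 5.88 and 3.86 with IL-1β compared with -1.82, -0.45 and -2.13 with IL-6 and -2.8, -2.87 and -3.05 in controls. It was 63.5-fold higher with IL-1β than with IL-6 (log2 difference 5.99 ± 0.65 (SE), q = 0.00105), by 5.99 on slide 1 and 5.99 on slide 2, although the IL-1β arrays themselves differed by more than 2. Its call was kept in all 6 fits without 1 array, with log2 differences from 5.26 without IL-1β 10 to 6.53 without IL-6 8. *Saa1*, another serum amyloid A gene, was at -0.55, 1.12 and 0.49 with IL-1β and -2.53, -2.36 and -1.73 with IL-6 (log2 difference 2.56 ± 0.43 (SE), q = 0.0177). *Serpina3f*, a serine protease inhibitor, lay at -0.24, -0.24 and 0.46 with IL-1β and -3.04, -3.9 and -2.72 with IL-6 (log2 difference 3.21 ± 0.35 (SE), q = 0.00105). The groups did not overlap for any of the 3 genes.

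*Slpi*, an inhibitor of neutrophil elastase, was 8.12-fold higher with IL-1β (log2 difference 3.02 ± 0.5 (SE), q = 0.016), but its second probe gave a smaller difference and was not called, and the median over both probes was 1.80. *Serpina3i* was well above background on all IL-1β arrays and on no IL-6 array, which made it at least 1.54-fold higher with IL-1β. Its q-value in limma (0.016) belongs to the fitted difference (2.24) and not to this bound. *Lrg1*, the member called lower, is described with the STAT3 targets. *Serpina3i* lost its call without IL-1β 5, IL-1β 10, IL-6 3 or IL-6 13, *Saa1* without IL-6 3, 8 or 13 (2.00 to 2.88 over the left-out arrays), and *Slpi* without IL-1β 5, IL-1β 10, IL-6 3 or IL-6 13 (2.45 to 3.48). Leaving out IL-6 3 or IL-6 13 left 2 members of the list called higher, and the run as a block raised that count to 7. *Lcn2*, which encodes the iron-scavenging protein lipocalin, lay at 2.88, 5.33 and 3.76 with IL-1β, -1.08, 2.52 and -0.49 with IL-6 and -3.75, -1.01 and -2.84 in controls. The groups did not overlap, but IL-6 8 stood 3 or more above the other IL-6 arrays. IL-1β 10 and control 6, of the same run, were also the highest of their groups. The difference of 3.67 ± 0.92 (SE) was not called (q = 0.122). Without IL-6 8 it was 4.89 (q = 0.0137), and with the run as a block the q-value was 0.0111. *Camp*, which encodes the antimicrobial peptide cathelicidin, lay at -1.98, -0.41 and -1.59 with IL-1β and -4.45, -3.58 and -4.68 with IL-6 (log2 difference 2.91 ± 0.51 (SE), q = 0.022), and lost its call without IL-1β 10, IL-6 3 or IL-6 13 (2.38 to 3.31).

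Among 14 complement components and regulators tested, 1 was called, higher with IL-1β (7.14%, against 0.677% over all genes). *C3*, the central component of the cascade, was 11.7-fold higher with IL-1β, at 4.7, 6.95 and 5.66 against 1.31, 3.47 and 1.86 with IL-6 and 0.92, 2.57 and 1.76 in controls (log2 difference 3.55 ± 0.67 (SE), q = 0.0311). Both groups spread by more than 2, and IL-6 8 came nearest to the IL-1β arrays. IL-1β 10 and control 6, of the same run, were also the highest of their groups. Without IL-1β 10, IL-1β 15, IL-6 3 or IL-6 13 the call was lost, with differences of 2.88 to 4.27 over the left-out arrays. *Cfb*, complement factor B, had a difference of 1.68 (q = 0.31).

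**Figure D2:**
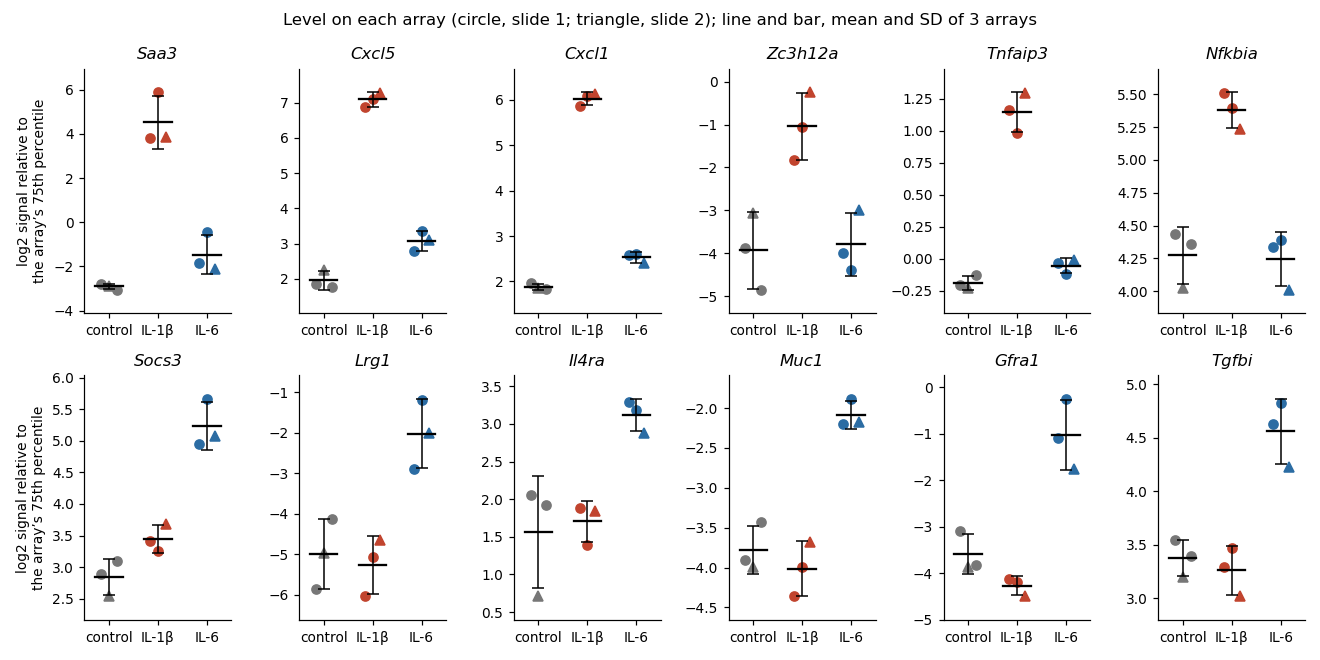
Level of 12 genes on each array (log2 signal relative to the 75th percentile of the array, vertical axes with separate scales) for the control, IL-1β and IL-6 groups. Circles are arrays of slide 1 and triangles arrays of slide 2; lines and bars are the mean and SD of 3 arrays; in the upper row the IL-1β arrays stand above the others and in the lower row the IL-6 arrays do.

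Of 17 matrix metalloproteinases and ADAMTS proteases tested, 3 metalloproteinases were called higher and 1 ADAMTS protease lower (0.677% and 0.395% over all genes), with a median of -0.07. *Mmp13* and *Mmp3* encode collagenase-3 and stromelysin-1, and *Mmp9* a gelatinase. *Mmp13* lay at 0.45, -0.24 and 0.26 with IL-1β and -1.81, -2.41 and -1.76 with IL-6 (log2 difference 2.15 ± 0.22 (SE), q = 0.00074), *Mmp9* was 5.5-fold higher (log2 difference 2.46 ± 0.35 (SE), q = 0.00711) and *Mmp3* 3.54-fold higher (log2 difference 1.82 ± 0.33 (SE), q = 0.0249). With IL-1β against control, *Mmp13* was called (2.60, q = 0.000188), while *Mmp9* (1.71, q = 0.0703) and *Mmp3* (1.51, q = 0.0963) were not. With IL-6, *Mmp9* and *Mmp3* differed from control by -0.75 and -0.31, and neither was called. *Mmp9* was well above background on 2 of 3 IL-6 arrays. *Mmp3* was at 6.03, 6.71 and 6.27 with IL-1β and 3.96, 5.23 and 4.35 with IL-6, with IL-6 8 nearest to the IL-1β arrays. IL-1β 10 and control 6, of the same run, were also the highest of their groups. *Mmp3* kept its call only without IL-6 8 (1.52 to 2.18 over the left-out arrays). *Adamts2*, which removes the amino-terminal propeptide of fibrillar procollagens, was lower with IL-1β (log2 difference -0.97 ± 0.15 (SE), q = 0.0133) and lost its call without IL-1β 5, IL-6 8 or IL-6 13 (-1.06 to -0.82). None of 18 collagens was called (4 had an unadjusted p below 0.05 in limma, 22.2% against 8.47% over all genes). With the run as a block, *Col8a1* (0.6, q = 0.0141) was called higher and *Col12a1* (-1.11, q = 0.00027) lower, and *Col12a1* was called without IL-6 3 as well (-1.35, q = 0.0425). *Col1a1* had levels of 6.46, 7.07 and 7.09 with IL-1β and 6.84, 7.02 and 7.21 with IL-6 (-0.15 ± 0.19, SE). Of 26 proteoglycans and matricellular proteins none was called (4 at an unadjusted p below 0.05, 15.4%). With the run as a block 2 were higher (*Dcn* and *Lum*, small proteoglycans of the collagen fibril) and 2 lower (*Has2* and *Fmod*). *Dcn* was at 7.31, 8.0 and 7.39 with IL-1β, 5.44, 6.37 and 5.02 with IL-6 and 5.44, 6.45 and 5.17 in controls (q = 0.0615 in limma). The cytokine groups did not overlap, and without IL-6 8 *Dcn* was called as well (2.35, q = 0.0467). *Acta2*, the smooth muscle actin of myofibroblasts, had a difference of 0.31 ± 0.29 (SE), and none of 11 contractile genes was called (2 at an unadjusted p below 0.05, 18.2%).

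Enzymes of oxidant and nitric oxide metabolism gave 3 calls of 13 tested, all higher with IL-1β (23.1%, against 0.677% over all genes). *Gch1*, the first enzyme of tetrahydrobiopterin synthesis, lay at 0.57, 0.66 and 0.57 with IL-1β, -0.6, -0.36 and -0.73 with IL-6 and -0.56, -0.85 and -0.76 in controls (log2 difference 1.16 ± 0.16 (SE), q = 0.0063). *Ass1*, which makes the precursor of arginine, was 1.68-fold higher (log2 difference 0.75 ± 0.12 (SE), q = 0.0133), and *Sod2*, the mitochondrial superoxide dismutase, 1.58-fold higher (log2 difference 0.66 ± 0.13 (SE), q = 0.0375). *Gch1* kept its call in all 6 fits without 1 array, *Ass1* lost it without IL-1β 5, IL-1β 15 or IL-6 8 (0.66 to 0.84), and *Sod2* kept it only without IL-1β 5 (0.53 to 0.79). Among surface receptors, *Fas*, a death receptor, was at 3.4, 3.83 and 3.7 with IL-1β and 2.15, 2.45 and 2.29 with IL-6 (log2 difference 1.35 ± 0.13 (SE), q = 0.000603), and *Tlr2*, a receptor for bacterial lipopeptides, was 2.64-fold higher with IL-1β (log2 difference 1.4 ± 0.25 (SE), q = 0.0249). *Tlr2* lost its call without IL-1β 10, IL-1β 15, IL-6 3 or IL-6 13 (1.08 to 1.63). *Cbr2*, a carbonyl reductase placed in the prostaglandin list, was 5.24-fold higher (log2 difference 2.39 ± 0.4 (SE), q = 0.0176) and lost its call without the same 4 arrays (1.99 to 2.79). *Ptgs2*, the inducible cyclooxygenase, was at 0.29, -0.93 and 0.11 with IL-1β and -0.57, -1.98 and -0.78 with IL-6, with overlapping groups (0.93, q = 0.699). *Ifit2*, the 1 gene called among 28 interferon-stimulated antiviral genes (3.57%, against 0.677% over all genes), had a difference of 0.87 (q = 0.0477), and kept the call only without IL-6 8.

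The remaining genes among the 12 with the largest positive differences belong to no such list. *Lrrc32* encodes GARP, which anchors latent TGFß at the cell surface, and lay at 3.18, 3.2 and 3.41 with IL-1β, 0.64, 0.4 and 0.64 with IL-6 and 1.16, 0.59 and 0.97 in controls (log2 difference 2.71 ± 0.17 (SE), q = 3.13e-05). Its groups were tight and 2 or more apart, and its call was kept under every alternative that had a test except within slide 2 (2.77, q = 0.28). *Gpr84*, a receptor for medium-chain fatty acids, and *Lamb3*, a laminin subunit of basement membranes, were well above background on all 3 IL-1β arrays and on no IL-6 or control array. The lower bound on the excess with IL-1β was 3.49-fold for *Gpr84* and 1.68-fold for *Lamb3*. These bounds set the IL-6 arrays at the dimmest signal well above background on each array. Both genes passed the filter through the IL-1β group alone. Their q-values in limma (0.00175 and 0.00337) belong to the fitted log2 differences (3.11 and 2.83), which use the dim IL-6 signals, and not to these bounds. Of genes outside the rule for names and chosen after their values were seen, *Fgf7*, a growth factor for epithelial cells, was at 5.51, 5.4 and 5.6 with IL-1β, 4.52, 4.4 and 4.47 with IL-6 and 4.82, 4.7 and 4.55 in controls (log2 difference 1.04 ± 0.09 (SE), q = 0.000305).

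Some genes regulated by STAT3 were called lower with IL-1β, that is, higher with IL-6. Of 23 STAT3 target genes tested, none was called higher with IL-1β and 4 were called lower (17.4%, against 0.395% over all genes). At an unadjusted p below 0.05 in limma, 1 was higher and 11 were lower (52.2% together, 8.47% over all genes). The median log2 difference was -0.34. With the run as a block 9 were lower, and without IL-1β 5, IL-1β 10, IL-6 3, IL-6 8 or IL-6 13 the count was 2. *Socs3*, the feedback inhibitor of gp130 signalling, was at 3.41, 3.25 and 3.68 with IL-1β, 4.95, 5.66 and 5.08 with IL-6 and 2.89, 2.53 and 3.1 in controls (log2 difference -1.79 ± 0.2 (SE), q = 0.00115). The lowest IL-6 array was more than 1 above the highest IL-1β array. On slide 1 the difference was -1.98 and on slide 2 it was -1.40. Against control, *Socs3* was called with IL-6 (2.39, q = 0.000776) and not with IL-1β (0.61, q = 0.463).

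*Lrg1*, a secreted glycoprotein of the acute phase, lay at -6.04, -5.08 and -4.64 with IL-1β, where 1 of 3 arrays was well above background, at -2.89, -1.18 and -2.0 with IL-6 and at -5.87, -4.98 and -4.13 in controls (log2 difference -3.23 ± 0.48 (SE), q = 0.00862). *Il4ra*, the receptor chain shared by IL-4 and IL-13, was at 1.89, 1.39 and 1.84 with IL-1β, 3.29, 3.19 and 2.88 with IL-6 and 2.06, 0.71 and 1.92 in controls (log2 difference -1.41 ± 0.25 (SE), q = 0.0249). Control and IL-1β arrays of both genes overlapped, with the IL-6 arrays above them. A second probe of *Il4ra* had the same sign and was not called. *Tnfrsf1a*, the main TNF receptor, was 1.51-fold lower with IL-1β (log2 difference -0.6 ± 0.12 (SE), q = 0.0364). *Stat3* itself was 1.7-fold lower with IL-1β (log2 difference -0.77 ± 0.15 (SE), q = 0.0358), although IL-1β 10 lay at 4.58 and IL-6 13 at 4.57, so that the groups overlapped. *Jak3*, a kinase of cytokine receptors, was lower as well (log2 difference -0.81 ± 0.13 (SE), q = 0.0134), which made 3 of 23 members of the JAK-STAT list (13%, against 0.395% over all genes). *Socs3* and *Lrg1* kept the call whichever array was left out. *Il4ra* kept it only without IL-1β 15 (-1.67 to -1.17 over the left-out arrays), *Jak3* lost it without IL-1β 5, IL-1β 10, IL-6 8 or IL-6 13 (-0.90 to -0.73), and *Tnfrsf1a* (-0.67 to -0.48) and *Stat3* (-0.87 to -0.63) lost it without any 1 of the 6.

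The STAT motif, written TTCNNNGAA and identical on both strands, was searched in the same way. A pair of genes called lower are shown because they hold it, *Socs3* and *Sbno2*, a corepressor known to be induced through STAT3, which was chosen after its values were seen.
Socs3: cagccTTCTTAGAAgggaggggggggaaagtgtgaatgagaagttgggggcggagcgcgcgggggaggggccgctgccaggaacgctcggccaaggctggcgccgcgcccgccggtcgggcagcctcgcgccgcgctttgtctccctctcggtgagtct
Sbno2 start 1: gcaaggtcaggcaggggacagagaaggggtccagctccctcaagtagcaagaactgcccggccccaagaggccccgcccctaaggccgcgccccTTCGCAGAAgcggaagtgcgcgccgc
Sbno2 start 2: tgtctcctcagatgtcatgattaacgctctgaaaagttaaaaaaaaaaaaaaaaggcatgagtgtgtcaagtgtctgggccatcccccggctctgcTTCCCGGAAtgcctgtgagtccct
The *Socs3* stretch is chr11:117969367-117969525 on the minus strand, with the match starting 154 bases before the gene. *Sbno2* has 2 annotated starts, chr10:80102703-80102822 and chr10:80101188-80101307 on the minus strand, with matches 26 and 24 bases before them. The motif was found in 7.02% of all promoters, in 6.06% of those of genes tested, in 9 of the 83 for genes called higher with IL-1β (10.8%) and in 8 of the 64 for genes called lower (12.5%). The C/EBP motif TTGCNNCAA was found in 1.74%, 1.3%, 1.2% and 0% of these sets. *Sbno2* was at 2.86, 3.03 and 3.11 with IL-1β, 3.76, 4.15 and 3.88 with IL-6 and 2.79, 2.64 and 2.8 in controls (log2 difference -0.93 ± 0.11 (SE), q = 0.00222). Its IL-1β arrays lay just above the control arrays and the IL-6 arrays well above both.

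Among the 12 genes with the largest negative differences, most do not belong to a list. *1600025M17Rik*, a non-coding transcript, was at -1.86, -1.55 and -1.04 with IL-1β, 2.04, 3.22 and 2.86 with IL-6 and 0.08, 0.3 and 1.09 in controls (log2 difference -4.19 ± 0.36 (SE), q = 0.000305). It was called against control in opposite directions, lower with IL-1β (-1.97, q = 0.0428) and higher with IL-6 (2.22, q = 0.0436), and its 3 groups did not overlap. *Gfra1*, a co-receptor of the neurotrophic factor GDNF, lay at -4.12, -4.19 and -4.5 with IL-1β, -1.09, -0.25 and -1.75 with IL-6 and -3.09, -3.86 and -3.81 in controls (log2 difference -3.24 ± 0.36 (SE), q = 0.00133). *Muc1*, a membrane mucin, was at -4.36, -4.0 and -3.68 with IL-1β, -2.2, -1.89 and -2.17 with IL-6 and -3.91, -3.99 and -3.43 in controls (log2 difference -1.93 ± 0.21 (SE), q = 0.00105). For *Gfra1* and *Muc1* the IL-6 arrays stood alone, and both genes were called against control with IL-6 (2.55, q = 0.0209 and 1.69, q = 0.00834) and not with IL-1β.

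*Dppa1* and *Prl4a1*, of the prolactin family, were well above background on all 3 IL-6 arrays and on no IL-1β array. They passed the filter through the IL-6 group alone. The lower bound on the deficit with IL-1β was 2.99-fold for *Dppa1* and 2.7-fold for *Prl4a1*. The q-values in limma (0.00105 and 0.0413) belong to the fitted log2 differences (-3.74 and -1.62), which use the dim IL-1β signals, and not to these bounds. *Il2rb*, the receptor chain shared by IL-2 and IL-15, was at -2.29, -2.22 and -1.44 with IL-1β and -0.29, 0.34 and 0.24 with IL-6 (log2 difference -2.08 ± 0.37 (SE), q = 0.0249). *Gpat2*, of the glycerol-3-phosphate acyltransferases, was 6.56-fold lower with IL-1β (log2 difference -2.71 ± 0.34 (SE), q = 0.0028), and *Galnt9*, which starts O-linked glycans, 3.95-fold lower (log2 difference -1.98 ± 0.27 (SE), q = 0.00514). *2610528A11Rik* was 3.89-fold lower (log2 difference -1.96 ± 0.2 (SE), q = 0.00074). *Rgcc*, a regulator of the cell cycle, was at 0.99, 2.01 and 1.59 with IL-1β, 2.94, 3.69 and 3.35 with IL-6 and 2.62, 3.37 and 2.93 in controls (log2 difference -1.79 ± 0.29 (SE), q = 0.0144), with the IL-1β arrays below all others. *Prl4a1* lost its call without any 1 of the 6 arrays, *Il2rb* without IL-1β 5, IL-1β 10, IL-6 8 or IL-6 13 (-2.47 to -1.90), and *Rgcc* without IL-1β 5, IL-1β 15, IL-6 8 or IL-6 13 (-2.05 to -1.51). *Tgfbi*, a matrix protein named for its induction by TGFß, was the 1 gene called of 19 in the TGFß list (5.26%, against 0.395% over all genes). Its level was 3.3, 3.47 and 3.02 with IL-1β, 4.63, 4.82 and 4.23 with IL-6 and 3.54, 3.2 and 3.39 in controls (log2 difference -1.3 ± 0.15 (SE), q = 0.00141). *Il13ra1*, the partner of *Il4ra* in the IL-13 receptor, was chosen after its values were seen and was at 1.59, 1.94 and 2.39 with IL-1β and 3.13, 3.51 and 3.42 with IL-6 (log2 difference -1.38 ± 0.27 (SE), q = 0.0358), with a call kept only without IL-1β 15.

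**Figure D3:**
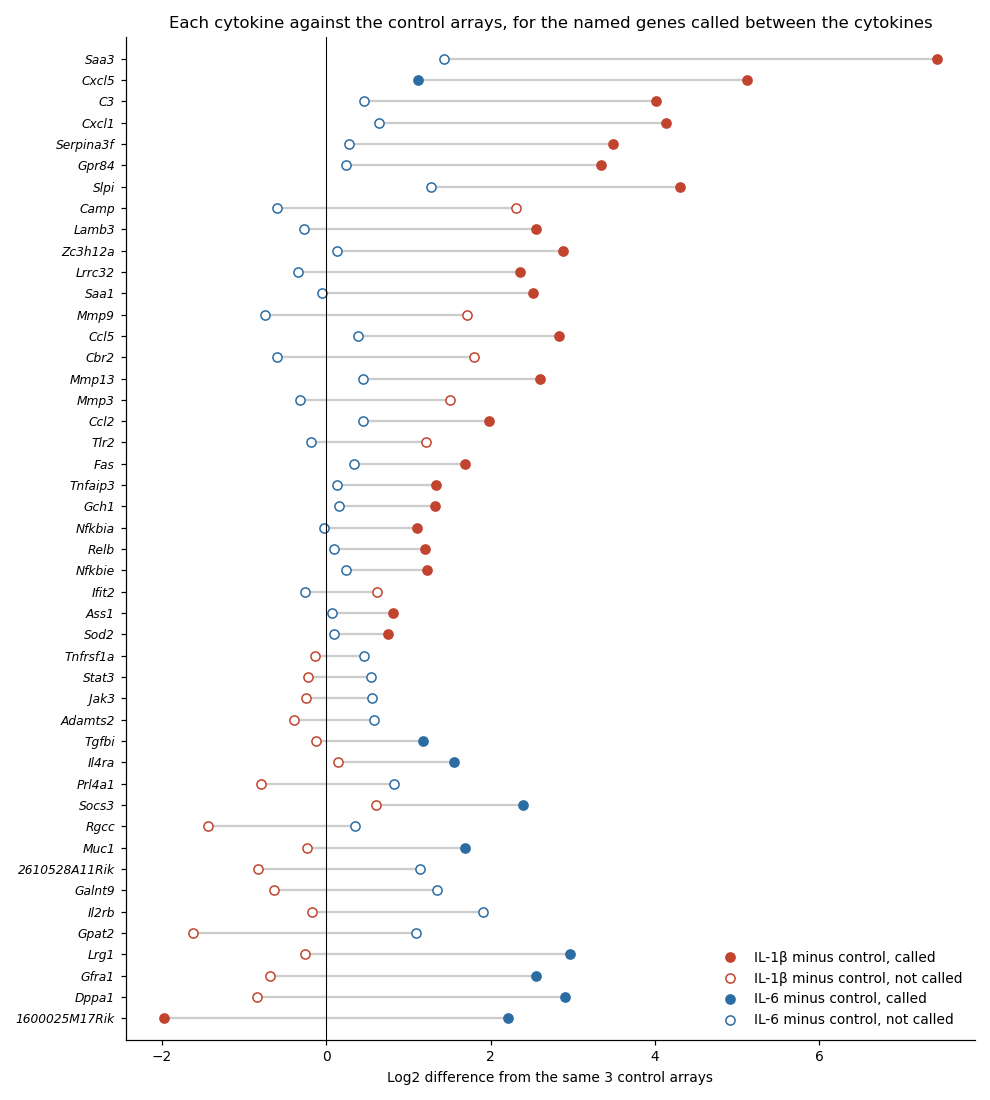
Log2 difference from the same 3 control arrays (horizontal axis) with IL-1β (red) and with IL-6 (blue) for the 46 named genes called between the cytokines, ordered by their direct difference. Filled points were called against control and open points were not; *Saa3* reached 7.43 with IL-1β and 1.44 with IL-6, and *Lrg1* -0.26 and 2.97.

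Against control, 67 genes were called higher with IL-1β (0.51%) and 4 lower (0.0304%), and 22 were called higher with IL-6 (0.167%) and 5 lower (0.038%), in the same fit and over the same genes. Some genes called against control with both cytokines showed no call between them. *Hp*, which encodes the haemoglobin-binding protein haptoglobin, lay at 3.29, 3.3 and 4.31 with IL-1β, 3.21, 3.38 and 4.38 with IL-6 and 0.04, -1.17 and 1.12 in controls. Both cytokines stood more than 2 above the highest control array, while their own difference was -0.02 ± 0.55 (SE). *Cebpd*, a transcription factor of the acute-phase response, was at 4.01, 4.42 and 4.62 with IL-1β, 4.31, 4.95 and 4.65 with IL-6 and 2.62, 3.06 and 3.11 in controls (-0.28 ± 0.21, SE). *Bcl3*, an atypical IκB protein that sits on both the NF-κB and the STAT3 list, lay at 3.41, 3.65 and 4.04, 3.94, 4.24 and 4.19 and 2.21, 2.35 and 2.86 in the same order (-0.42 ± 0.20, SE). A difference that is not called does not show that the cytokines act alike on a gene. *Il6* itself was at -1.34, -0.67 and -0.48 with IL-1β, -1.3, -0.17 and -0.97 with IL-6 and -2.66, -2.2 and -2.13 in controls, above every control array in both groups, and was called neither against control (1.5, q = 0.114 and 1.52, q = 0.148) nor between the cytokines (-0.02 ± 0.34, SE). A second probe of *Il6* had the opposite sign between the cytokines and was not called either.

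The receptors were not among the called genes. *Il1r1* and *Il1rap*, the chains of the IL-1 receptor, had log2 differences of -0.10 ± 0.16 and -0.03 ± 0.31 (SE), and *Il6ra* and *Il6st*, the chains of the IL-6 receptor, -0.09 ± 0.33 and -0.23 ± 0.16. No member was called of 19 IL-1 ligands, receptors and adaptors or of 15 IL-6 family ligands and receptors. At an unadjusted p below 0.05 in limma were 3 (15.8%) and 1 (6.67%), against 8.47% over all genes. With the run as a block, 1 member of the IL-6 family list was called lower. *Il1rn*, the IL-1 receptor antagonist, was not well above background on any of the 6 arrays, and *Csf3* on 1 IL-1β array, so that neither was tested. Among the colony-stimulating factors, *Csf2* lay at -2.05, -2.46 and -2.84 with IL-1β and -5.01, -3.41 and -5.77 with IL-6, where 1 of 3 arrays was well above background (2.28, q = 0.128).

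**Figure D4:**
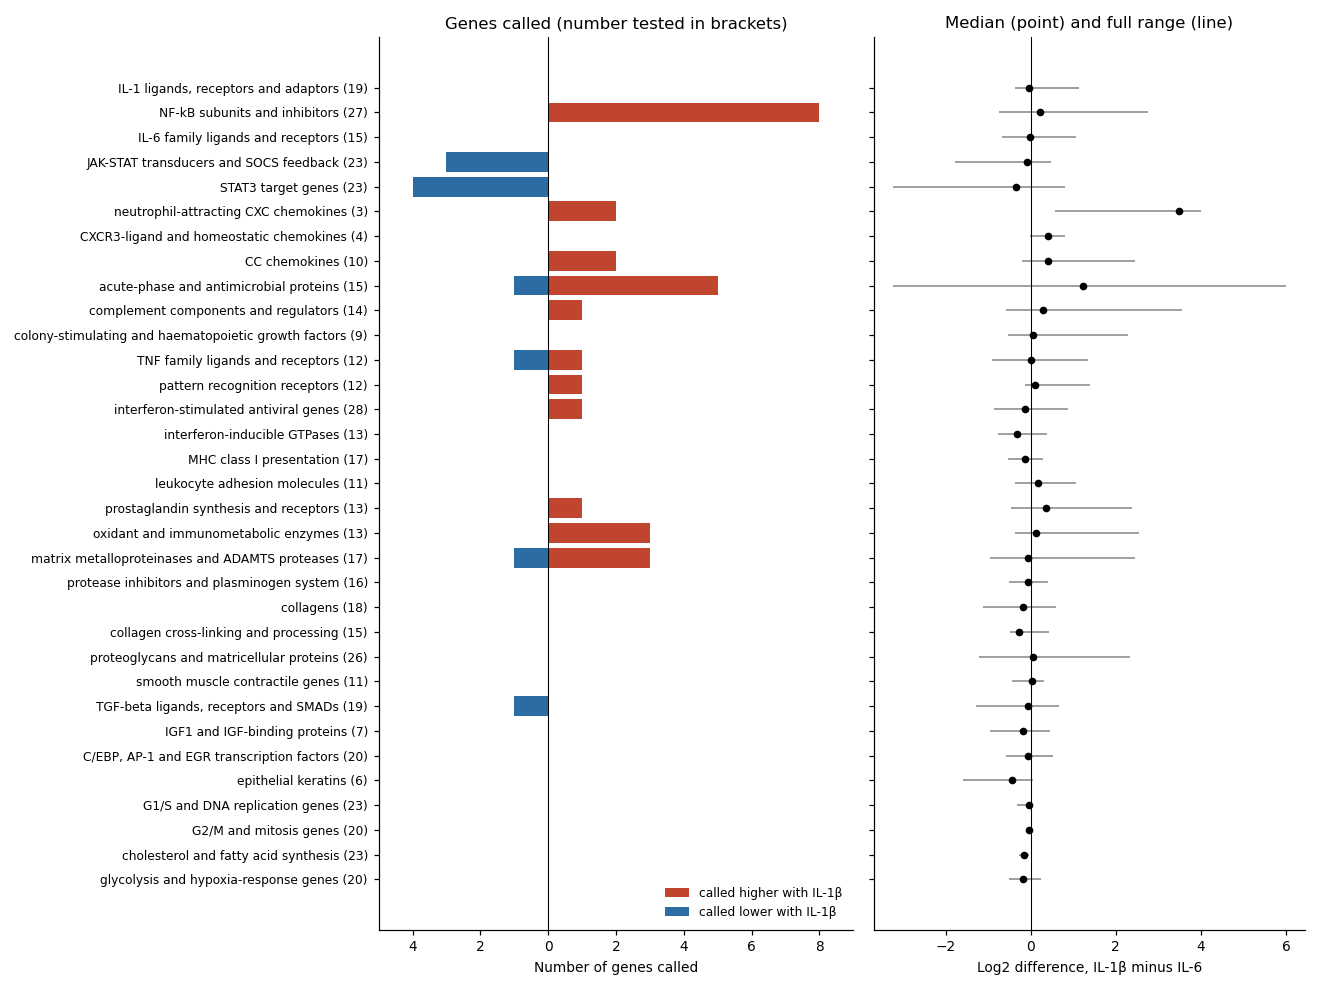
Left, number of genes called higher (red, to the right) and lower (blue, to the left) with IL-1β in each of the 33 gene lists, with the number tested in brackets; right, the median (point) and the full range (line) of the log2 difference in each list. The NF-κB list holds 8 genes called higher and the STAT3 targets 4 called lower, while 19 lists hold no call.

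The lists of cell-cycle, lipid synthesis and glycolysis genes gave no call in limma. Of 23 genes of G1/S and DNA replication and 20 of G2/M, 1 and 0 had an unadjusted p below 0.05, with medians of -0.04 and -0.05. Of 23 genes of cholesterol and fatty acid synthesis none had an unadjusted p below 0.05 (median -0.16), and of 20 genes of glycolysis and the hypoxia response 8 had one, all lower with IL-1β (median -0.19, no call). Over all genes tested the share with an unadjusted p below 0.05 was 8.47%. None of 13 interferon-inducible GTPases was called or had an unadjusted p below 0.05, with a median of -0.31.

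The 10 fibroblast markers were well above background on all 6 arrays and none was called. Of 8 markers of macrophages and monocytes, *Csf1r*, *Itgam* and *Cd68* were above background on all 6 arrays, while *Ptprc*, *Adgre1*, *Lyz2* and *Cx3cr1* were so on none. *Mrc1*, the mannose receptor, was above background on the 3 IL-1β arrays and on no IL-6 array, which made it at least 1.53-fold higher with IL-1β. Its fitted difference (1.97) was not called (q = 0.0592) but was called with the run as a block (q = 0.00454). The summed linear level of the list was 11.1 to 24.2 with IL-1β and 10.9 to 23.4 with IL-6. No marker of 7 epithelial ones was above background on all 6 arrays, and 1 of 6 endothelial, 2 of 7 lymphocyte and 3 of 6 muscle and adipocyte markers were. None of these markers was called between the cytokines. With the run as a block *Mrc1* and the fibroblast markers *Dcn* and *Lum* were called higher and the fibroblast marker *Pdgfra* lower (-0.59, q = 0.0103). The part of other cell types in the results was not tested.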

How the data were processed

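Gene expression was measured on 15 one-color arrays of 62976 spots, 3 for each of 5 groups taken from the labels. The authors labelled RNA with Cyanine 3 and extracted the scans with Agilent Feature Extraction 10.7.3.1. The deposited intensity is the processed signal, background-subtracted and detrended by that software, with no normalization between arrays; the deposited series table holds the same intensity values (largest difference 0). Spots marked as outliers were left out, the log2 signals of a probe's spots were averaged, and each array was scaled by subtracting its 75th percentile. Probes were tested when well above background (at least 0.5 of their spots) on every array of the IL-1β or of the IL-6 group; 32 of them lacked a value on some array of the 15, where the fit dropped it.

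All 15 arrays were fitted in limma 3.58.1 under R 4.3.3 with the group and the slide, 1 of 2, as fixed terms, which left 9 residual degrees of freedom. Moderated two-sided tests were adjusted by Benjamini-Hochberg over the probes tested, and a probe was called at q < 0.05 and an absolute fold-change of 1.5 or more. Probes were named through RefSeq identifiers (GRCm38.p6; 33767 of 56605 probes), and a gene is represented by its brightest tested probe. The arrays carry intensities, so that their number, and not a read depth, limits the precision. The script was tested on simulated data.

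The members, the 33 gene lists and the tests were chosen with earlier results of these data known. Genes named were the 12 largest differences in each direction among called genes whose groups did not overlap, up to 5 called members of each list, and 24 genes fixed whatever their values. When a probe was above background on none of a group's arrays, the fold is a bound, from the mean of the other group and, per array, the higher of the probe's signal and the dimmest signal well above background. Whether label numbers pair the arrays was checked on deviations from the group means with the slide removed: r was 0.369 to 0.576 for the 3 pairs of the same run and -0.422 to 0.0919 for the 6 pairs of different runs, so that the run was added as a block in an alternative fit. The normexp alternative used the median spot signal, since the mean signal is not among the columns used here. Promoters were scanned with Python 3 over 250 bases before each start.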

Additional observations from a re-analysis of the deposited data

How the results depend on the processing

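None of the 205 called probes changed sign in any alternative fit, nor did any of the 46 named genes called. They were called on these same arrays, so their signs were nearly fixed in advance. Of the 10 named genes that were not called, 6 changed sign under some alternative, all with reported differences between -0.15 and 0.14 (*Il6*, at -0.02, was at 0.49 within slide 2). Beside the 205 calls (126 higher with IL-1β, 79 lower), 120 probes were called without the slide in the model (75 and 45), 518 with the run of label numbers and the slide as blocks (298 and 220), 7 in a fit of the 6 arrays alone (7 and 0), 81 with no filter on dim probes (53 and 28), 118 at a fold-change of at least 2 (74 and 44) and 5 within slide 1 (5 and 0), where 1363 probes had an unadjusted p below 0.05 and 564 of these were lower. Leaving out 1 array gave 81 (without IL-6 13) to 148 (without IL-6 3) calls in all, 55 (without IL-6 13) to 87 (without IL-6 8) higher and 25 (without IL-1β 5) to 71 (without IL-6 3) lower. The other scalings, filters and background corrections kept the count within 1.5 times. Fewer arrays or residual degrees of freedom were left in the fit of 6 arrays, within either slide and in the fits without 1 array; for the other settings the cause was not tested. Within slide 2, which held 1 array of each cytokine, a test with the spread of all groups on that slide was added after seeing the data and called 0 probes (0 higher and 0 lower) in limma with 2 residual degrees of freedom, while 1257 had an unadjusted p below 0.05 and 480 of these were lower; the lone arrays are assumed there to vary like the other groups. Of the 46 named genes called, 27 kept the call whichever array was left out. *Lcn2* was called with normexp background correction (3.43, q = 0.0402), with the run as a block and without IL-6 8. *Lamb3* was not called with normexp, and its bound rests on the dimmest signals of each array. Probes near background, such as *Gpr84*, *Lamb3*, *Dppa1* and *Prl4a1*, give bounds only, and 3 arrays a group limit what could be called.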
